A study of Mus musculus with 97 samples.

Results

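The comparison set 8 captured regions of hippocampus from APOE4 mice given vehicle against 8 from APOE3 mice given vehicle, which were 16 of the 97 libraries of the series and were taken by genotype, treatment and region as labelled. All the mice were older animals in which a human APOE allele, APOE4 or APOE3, stands at the mouse locus. They received vehicle (50% dimethyl sulfoxide and 50% phosphate buffered saline) by injection into the peritoneum 2 times per week for 2 weeks. The other groups used here were DD hippocampus (doxorubicin plus docetaxel), DC hippocampus (doxorubicin plus cyclophosphamide) and vehicle cortex, each with 8 regions per genotype. The comparison asked which transcripts differ with the APOE allele in hippocampus that saw no chemotherapy. No APOE3 library shared a collection plate with an APOE4 library (0 genotypes were found on both of the 2 plates), so genotype and plate cannot be told apart in any difference given below. The labels name no animal for any region, and a p-value over regions is too small where regions come from the same animal.

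Apolipoprotein E carries cholesterol and other lipids between cells of the brain. It is made mainly by astrocytes and by activated microglia, and is taken up through receptors of the LDL receptor family. The APOE4 form differs from APOE3 by a single amino acid, is less well lipidated, and is the main common genetic risk factor for late-onset Alzheimer disease, in which the hippocampus is affected early. Expression was read with the GeoMx Digital Spatial Profiler. In this assay, probes for each transcript are hybridised to a tissue section, ultraviolet light releases the probe tags of a chosen region, and the tags are sequenced. A negative probe, designed to match no transcript, measures the background.

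The libraries of the genotypes differed in depth and background before any gene was compared. Total counts ran from 40154 to 92107 with a median of 48553 in APOE4, against 25314 to 36372 with a median of 30308 in APOE3, and the groups did not overlap. The negative probe lay between 1.72 and 4.10 counts in APOE4 (median 2.03) and between 1.07 and 1.41 counts in APOE3 (median 1.27), again without overlap. It was 1.77-fold higher in APOE4 (two-sided exact permutation p = 0.000155, adjusted over 5 library measures 0.000259; over 4 runs of neighbouring wells against 4, p = 0.0286, the smallest possible, adjusted 0.0476). These p-values are over regions that may share animals. At the lowest value in the files, 1, stood 35.5% ± 12.7 of genes in APOE4 and 72.5% ± 9.47 in APOE3 libraries (SD, n = 8 each). Set against the negative probe, the order was reversed. Over 3 times that value stood 259 ± 149 genes in APOE4 and 478 ± 264 in APOE3 libraries (SD, n = 8 each), with overlapping ranges. The counts of the 38 genes that could be tested summed to 3447 ± 1145 in APOE4 and 2913 ± 1253 in APOE3 (SD, n = 8 each), a difference that did not pass (exact permutation p = 0.349, adjusted 0.349).

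**Figure D1:**
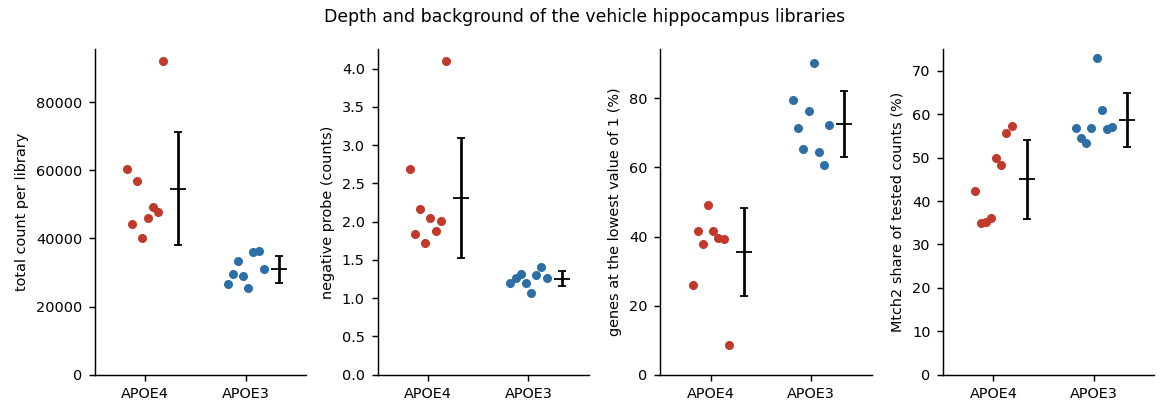
Total count, negative probe value, percentage of genes at the lowest value of 1 and Mtch2 share of the tested counts in each vehicle hippocampus library, APOE4 (red) left of APOE3 (blue). Black bars give the mean and SD of 8 libraries; the negative probe runs from 1.72 to 4.10 in APOE4 and from 1.07 to 1.41 in APOE3.

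Libraries also stood apart within the groups. In APOE4 library 3, 31 genes had at least 10 counts and at least 10 times the highest value of the other 15 libraries, and in APOE4 library 6 there were 17 such genes; the other 14 libraries had between 0 and 3. APOE4 library 8 had the highest negative probe value, 4.10, with 8.47% of genes at the lowest value. In APOE3 library 5, 90.1% of genes stood at that value, and Mtch2 had its highest normalised count, 4754. The vehicle hippocampus calls, among the tested genes and over all genes, are given with and without these 4 libraries where they changed. The other comparisons, the interactions, the gene lists and the library measures were not refitted without these 4 libraries.

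Hippocampal identity could not be checked from expression. None of the 17 hippocampus markers measured, such as Zbtb20, Neurod1, Dkk3 and Pdzd2, passed the low-count filter, and their median level was 0.856 times the negative probe. Marker lists of excitatory neurons (0.942 times), inhibitory neurons (0.833), homeostatic microglia (0.884), astrocytes (0.939) and oligodendrocytes (0.884) had medians as low. Mouse Apoe itself had 1 to 5 counts in APOE4 (median 1.5) and 1 to 4 counts in APOE3 (median 1), at 0.884 times the negative probe. Whether the probe of this mouse panel reads the human APOE transcript is not given in the sources used here, so these counts do not check the labels.

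Of the 38 genes tested, 15 passed (39.5% at an edgeR adjusted p under 0.05), 6 of them higher (15.8%) and 9 lower (23.7%) in APOE4. Lrr1, Cd99, Chic2, Mtch2, Erlin2, Pcbd2, Ripply2, Gm10265 and Gm52523 fell, and Mplkip, Cyp2d12, Elof1, Inhbb and Gm46840 were among those that rose. The median log2 fold change of the tested genes was -0.07. Every edgeR p-value given here and below is over regions that may share animals, and is then too small. Normalised counts, given per library below, are counts scaled by TMM, edgeR's trimmed-mean factors, to a common 2686 tested counts. In 2 of the 38 genes (5.26%), Lrr1 and Cd99, the normalised counts of the genotypes did not overlap.

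Lrr1, the substrate receptor of a cullin-2 ubiquitin ligase that helps take the replicative helicase off DNA, had the smallest p. Its normalised counts ran from 23.0 to 48.6 in APOE4 (median 39.7) and from 60.3 to 99.5 in APOE3 (median 79.4). Every APOE4 library therefore lay below every APOE3 library, with means of 38.0 ± 9.61 and 82.3 ± 14.9 (SD, n = 8 each). The gene fell 2.20-fold (log2 -1.14, SE 0.16, edgeR adjusted p = 1.00e-07, over regions that may share animals). The unscaled counts, 36 to 64 in APOE4 and 27 to 114 in APOE3, overlapped. Over the negative probe, its median level was 20.1-fold in APOE4 and 45.0-fold in APOE3.

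Chic2, a palmitoylated protein of the plasma membrane and of intracellular vesicles, ran from 10.9 to 44.8 normalised counts in APOE4 (median 23.6) and from 30.6 to 64.1 in APOE3 (median 45.7). The groups overlapped, but 7 of 8 APOE4 libraries lay below the APOE3 mean. The gene fell 1.71-fold (log2 -0.78, SE 0.19, edgeR adjusted p = 0.00138). Cd99, a surface glycoprotein through which leukocytes cross the endothelium, ran from 18.6 to 30.7 in APOE4 (median 26.0) and from 34.8 to 57.5 in APOE3 (median 41.2), with no overlap. It fell 1.64-fold (log2 -0.72, SE 0.18, edgeR adjusted p = 0.00162). Its unscaled counts had a mean of 31.3 in APOE4 and 32 in APOE3.

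Lrr1 and Chic2 were the 2 genes that passed in the same direction in vehicle, DD and DC hippocampus, and their promoters are shown for that reason. The windows run from 250 bases before to 50 bases after the RefSeq gene start in GRCm38.p6, the assembly also called mm10, 5′ to 3′ on the gene's strand, at chr12:69168564-69168863 (plus strand) for Lrr1 and chr5:75044592-75044891 (minus strand) for Chic2. Capitals mark GGGCGG or its reverse complement CCGCCC, the GC box; CCAAT and TATAAA were searched as well, on both strands.
Lrr1: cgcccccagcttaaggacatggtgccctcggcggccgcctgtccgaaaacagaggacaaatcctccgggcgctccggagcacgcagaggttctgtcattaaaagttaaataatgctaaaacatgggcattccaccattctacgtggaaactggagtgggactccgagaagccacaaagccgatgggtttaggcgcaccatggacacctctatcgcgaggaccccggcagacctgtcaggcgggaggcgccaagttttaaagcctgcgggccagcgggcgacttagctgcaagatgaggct
Chic2: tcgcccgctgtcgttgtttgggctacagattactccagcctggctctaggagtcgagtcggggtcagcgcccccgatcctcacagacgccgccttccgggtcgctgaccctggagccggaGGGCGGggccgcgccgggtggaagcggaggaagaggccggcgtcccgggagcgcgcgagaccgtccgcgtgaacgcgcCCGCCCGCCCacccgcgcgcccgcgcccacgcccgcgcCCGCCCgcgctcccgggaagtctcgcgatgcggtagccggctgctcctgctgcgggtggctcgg
The Chic2 window held 4 GC-box matches, counting overlapping ones apart, and 75.7% G and C; the Lrr1 window held 0 matches and 58% G and C. The GC box occurred in 35.7%, CCAAT in 37.4% and TATAAA in 13.6% of the 32851 promoters of the table; neither window held CCAAT or TATAAA. A match is a string of letters and not a measured binding site.

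Mtch2, an outer mitochondrial membrane protein that inserts other proteins into that membrane, was the most abundant tested transcript. Its normalised counts ran from 802 to 2227 in APOE4 (median 1159) and from 1764 to 4754 in APOE3 (median 2051), and all 8 APOE4 libraries lay below the APOE3 mean. It fell 1.80-fold (log2 -0.85, SE 0.28, edgeR adjusted p = 0.0118, over regions that may share animals). Without APOE3 library 5 the call ended (log2 -0.60, adjusted p = 0.0589). Its share of the tested counts was 45.0% ± 9.10 in APOE4 and 58.7% ± 6.20 in APOE3 (SD, n = 8 each; exact permutation p = 0.00280, adjusted 0.00350; over runs of wells p = 0.0857, adjusted 0.107). The unscaled counts, with means of 1592 in APOE4 and 1726 in APOE3, overlapped almost entirely, at 662 to 2935 and 659 to 3104.

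Erlin2, which sits in lipid rafts of the endoplasmic reticulum and restrains the activation of sterol regulatory element binding proteins, ran from 27.0 to 48.7 in APOE4 (median 41.3) and from 46.1 to 68.6 in APOE3 (median 52.3). It fell 1.36-fold (log2 -0.44, SE 0.16, edgeR adjusted p = 0.0212). Erlin2 lost its call under 10 of 31 alternatives, among them DESeq2 and leaving out APOE3 library 4 (log2 -0.38, adjusted p = 0.0601). In the fit of the vehicle libraries of both regions it did not pass (log2 -0.44, edgeR adjusted p = 0.0864). Before scaling, its mean count was higher in APOE4 (48.6) than in APOE3 (40.9). Pcbd2, a pterin dehydratase, was among the dimmer genes, with median levels 3.48-fold over the negative probe in APOE4 and 5.42-fold in APOE3. Its log2 fold change was -0.79 (SE 0.30, edgeR adjusted p = 0.0296), and the call ended when any 1 of 6 libraries was left out: APOE4 libraries 1 and 3 or APOE3 libraries 1, 5, 6 and 7. It also ended without the 4 libraries that stood apart (log2 -0.75, adjusted p = 0.0990). Ripply2, a corepressor that acts when somites form, ran from 26.9 to 69.8 in APOE4 (median 38.4) and from 37.4 to 136 in APOE3 (median 58.9). It fell 1.55-fold (log2 -0.63, SE 0.20, edgeR adjusted p = 0.00986). Ripply2 lost its call under 7 of 31 alternatives, among them leaving out APOE3 library 5 (log2 -0.41, adjusted p = 0.0792). In the fit of the vehicle libraries it did not pass (log2 -0.63, edgeR adjusted p = 0.0590). Its unscaled counts had means of 50.9 in APOE4 and 49.5 in APOE3.

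Gm10265 and Gm52523 are predicted genes. Gm10265, for which the annotation used here gave no entry, ran from 82.7 to 145 normalised counts in APOE4 and from 118 to 190 in APOE3 (log2 -0.45, SE 0.15, edgeR adjusted p = 0.0118). Gm52523 ran from 42.3 to 72.4 in APOE4 and from 67.1 to 102 in APOE3 (log2 -0.41, SE 0.11, edgeR adjusted p = 0.00227). In both genes all 8 APOE4 libraries lay below the APOE3 mean, while the ranges overlapped at their edges. Unscaled means were instead higher in APOE4, at 142 against 120.5 for Gm10265 and 74.75 against 64.25 for Gm52523. The Gm10265 fall was lost under 8 of 31 alternatives, among them upper-quartile scaling (-0.04, adjusted p = 0.867), no scaling factors (-0.0042, adjusted p = 0.998) and the 16 libraries alone (-0.44, adjusted p = 0.0572).

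Cyp2d12, a cytochrome P450 of the Cyp2d cluster, was close to the lowest value in APOE3. It had 2 to 20 counts in APOE4 (median 10) and 1 to 3 counts in APOE3 (median 1), so that most APOE3 libraries stood at the lowest value. At medians of 4.27 times the negative probe in APOE4 and 0.884 times in APOE3, it was above background in APOE4 and not in APOE3. It rose (log2 1.94, SE 0.41, edgeR adjusted p = 0.000210), but with APOE3 at background the size of the change is not settled: it lay between 1.44 and 2.90 on the log2 scale over 31 alternatives. The Cyp2d genes are close copies of each other, and the probe's specificity among them was not checked.

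Elof1, a transcription elongation factor that also takes part in transcription-coupled DNA repair, had 11 to 30 counts in APOE4 (median 15) and 2 to 9 counts in APOE3 (median 3). The unscaled counts did not overlap; the normalised counts did, at 6.02 to 20.2 in APOE4 and 1.40 to 11.5 in APOE3. It rose 2.52-fold (log2 1.33, SE 0.40, edgeR adjusted p = 0.00670), and its median over the negative probe was 6.71-fold in APOE4 and 2.65-fold in APOE3. Inhbb, the beta-B subunit of inhibins and activins, had 6 to 20 counts in APOE4 and 2 to 8 counts in APOE3, and rose 1.95-fold (log2 0.97, SE 0.26, edgeR adjusted p = 0.00227); without the 4 libraries that stood apart it stood at 0.76 (adjusted p = 0.0916).

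Gm46840, a long non-coding RNA, was the most abundant of the genes that rose. It ran from 215 to 381 normalised counts in APOE4 (median 259) and from 124 to 250 in APOE3 (median 201), and all 8 APOE4 libraries lay above the APOE3 mean (log2 0.55, SE 0.20, edgeR adjusted p = 0.0212). Without the 4 libraries it stood at 0.47 (adjusted p = 0.0999). Mplkip, a protein altered in a form of trichothiodystrophy, had the largest fold change, log2 3.30 (SE 0.65, edgeR adjusted p = 0.000114), and 1 library made it. APOE4 library 3 held 484 Mplkip counts, while the other APOE4 libraries held 4 to 22 and the APOE3 libraries 1 to 10. Without that library the log2 fold change was 0.99 (adjusted p = 0.0214), and without the 4 libraries that stood apart it was 0.72 (adjusted p = 0.191).

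**Figure D2:**
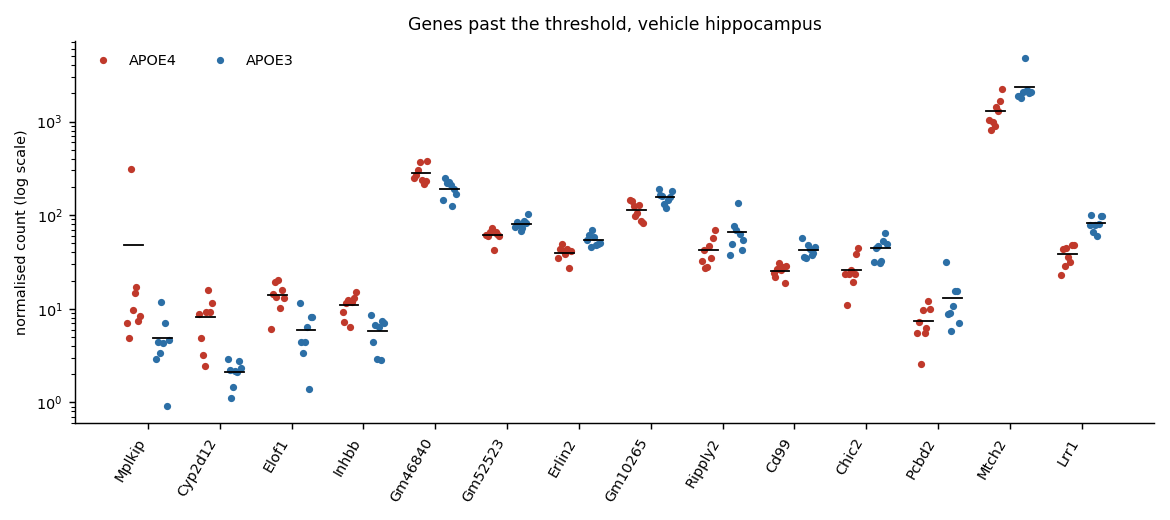
Normalised counts (log scale) of 14 genes that passed, in each of 8 APOE4 (red, left) and 8 APOE3 (blue, right) libraries, with black lines at the means. The groups are apart in Lrr1 and Cd99, and 1 APOE4 library at 310 sets the mean of Mplkip.

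The other 23 tested genes did not pass. Of these, the most abundant were Gm33888 (log2 -0.18, SE 0.20, edgeR adjusted p = 0.489), the chromatin protein Hmga2 (0.28, SE 0.22, 0.317) and the exoribonuclease Xrn1 (0.33, SE 0.19, 0.18). Tysnd1, a peroxisomal protease, stood at -0.14 (SE 0.16), Gm34733 at -0.31 (SE 0.17), the vomeronasal receptor Vmn1r189 at 0.32 (SE 0.19) and the cytochrome c oxidase assembly factor Coa5 at 0.07 (SE 0.21). Trir, Txlnb and the neuronal membrane protein Ctxn1 stood at 0.04 (SE 0.20), 0.03 (SE 0.20) and -0.24 (SE 0.22). Among these 10, Gm34733 had the lowest edgeR adjusted p, 0.158.

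**Figure D3:**
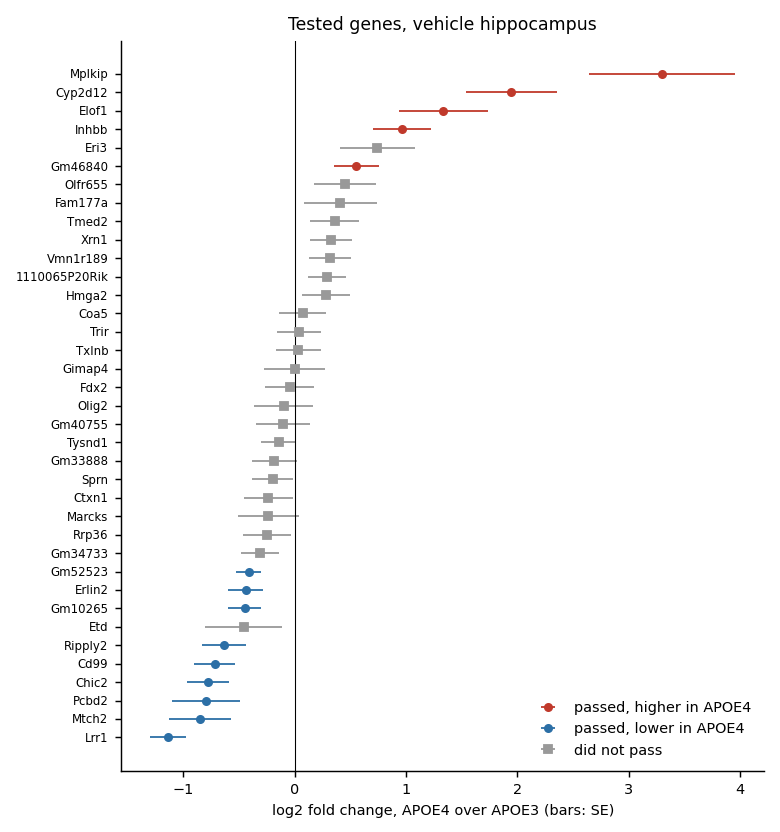
Log2 fold change of APOE4 over APOE3 with its standard error for 37 tested genes in vehicle hippocampus. Red points passed and were higher in APOE4 (5 genes), blue points passed and were lower (9 genes), and grey squares did not pass.

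Which genes passed, and how many in each direction, moved with the scaling. TMM gave 6 higher and 9 lower; upper-quartile scaling gave 13 higher and 1 lower, and the summed tested counts with no scaling factors gave 13 higher and 2 lower. The median log2 fold change of the tested genes was -0.07 under TMM, 0.32 under upper-quartile scaling and 0.35 with no factors. Under these same scalings the log2 fold change of Lrr1 was -1.14, -0.75 and -0.73. Scaled to the negative probe or to the total count of all genes, 3 genes passed as higher and 1 as lower under each. Lrr1, Cyp2d12, Elof1 and Mplkip were the 4 genes called under TMM and under each of the 5 other settings. DESeq2 was among these settings, with a model and test of its own besides its size factors. Cd99 and Chic2 kept their sign under all of these settings but passed only with TMM and DESeq2. Gm52523 and Erlin2 changed sign with no scaling factors, to 0.02 and 0.0003. Rescaling does not test how a gene entered through the low-count filter. Median counts of Cyp2d12, Elof1 and Mplkip were 1, 3 and 2.5 in APOE3, and 10, 15 and 12 in APOE4. These genes could therefore enter through APOE4 libraries. With no low-count filter, Lrr1, Cyp2d12 and Elof1 lost their calls.

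**Figure D4:**
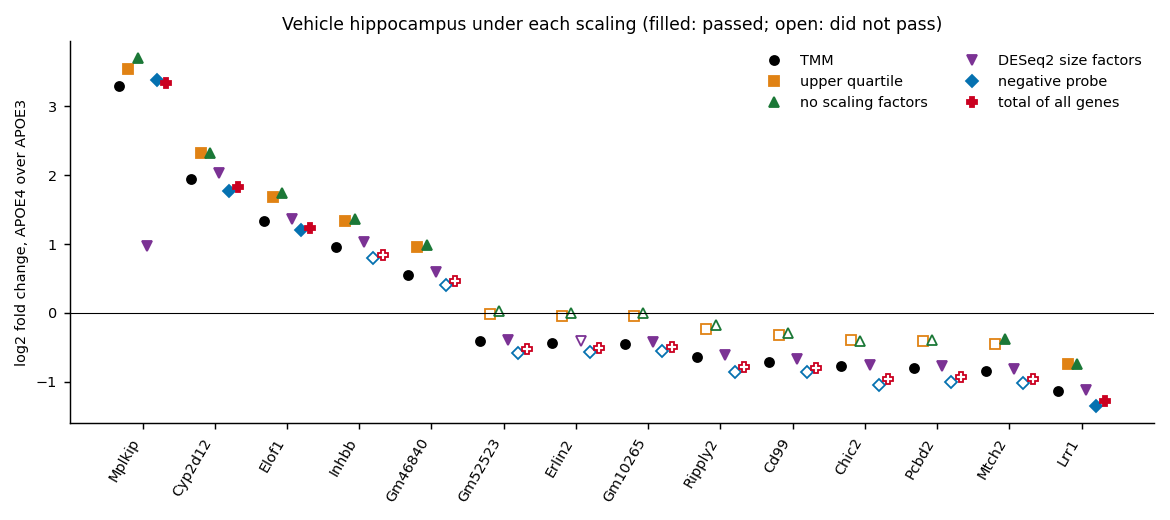
Log2 fold change of APOE4 over APOE3 for 14 genes that passed, under TMM and 5 other settings. Among these, DESeq2 also changed the model and test. Filled symbols passed the threshold and open ones did not. The symbols of Lrr1, Cyp2d12, Elof1 and Mplkip are filled under each setting.

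Background was also taken out directly. With each library's negative probe value subtracted from its counts, 15 of the 15 calls were kept, and with the log2 negative probe as a covariate 13 were kept, without Erlin2 and Mtch2. Fold changes were related to abundance: across the 38 genes, the median level over the negative probe and the log2 fold change had a Spearman correlation of -0.40, given as a description, since genes of the same libraries share depth and background. Below the median level of the tested genes, 4 genes passed as higher and 1 as lower; above it, 2 passed as higher and 8 as lower. The low-count filter ran over all 6 hippocampus groups, so a gene dim in APOE3 could enter through APOE4 libraries alone. The 4 genes below the median level that rose were Cyp2d12, Mplkip, Elof1 and Inhbb. Their median counts were 1, 2.5, 3 and 3.5 in APOE3, and 10, 12, 15 and 14.5 in APOE4. The filter can therefore set part of the split and of the correlation, and no conclusion is drawn from them. The part of depth in them was not tested. With counts summed over runs of neighbouring wells, 10 of the 15 calls were kept; Mtch2 (-0.68, adjusted p = 0.106), Erlin2 (-0.37, adjusted p = 0.114), Ripply2 (-0.53, adjusted p = 0.114), Gm10265 (-0.39, adjusted p = 0.0891) and Gm46840 (0.62, adjusted p = 0.0717) were lost.

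The same allele comparison was available in mice given DD or DC and in vehicle cortex, from other libraries on the same 2 plates. In DD hippocampus 3 of 38 genes passed (7.89%): Coa5 was higher (2.63%), and Lrr1 and Chic2 were lower (5.26%). In DC hippocampus 8 passed (21.1%), 4 higher and 4 lower (10.5% each). In vehicle cortex 9 of 37 passed (24.3%), 8 higher (21.6%) and 1 lower (2.7%), in a fit of the vehicle libraries that called 12 of 37 in hippocampus (32.4%), 5 higher (13.5%) and 7 lower (18.9%). Of the 15 genes that passed in vehicle hippocampus, 15 had the same sign in DD hippocampus and 2 of them passed there; 14 had the same sign in DC hippocampus and 6 passed. In vehicle cortex 13 of the 15 could be tested, 10 had the same sign and 4 passed. Over all genes tested, the same sign was found for 29 of 38, 27 of 38 and 21 of 33. Plate separates the genotypes in each of these comparisons as well.

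Lrr1 showed the difference in all of them. In hippocampus, its normalised counts averaged 27.0 ± 4.36 in APOE4 and 86.2 ± 26.0 in APOE3 after DD, and 26.7 ± 3.32 in APOE4 and 101 ± 25.3 in APOE3 after DC (SD, n = 8 each). The highest APOE4 library, at 31.3 after DD and 31.1 after DC, lay below the lowest APOE3 library, at 61.0 after DD and 63.6 after DC. The log2 fold changes were -1.67 (SE 0.16, edgeR adjusted p = 6.40e-13) after DD, -1.89 (SE 0.16, adjusted p = 1.41e-14) after DC and -0.90 (SE 0.15, adjusted p = 9.16e-06) in vehicle cortex. Chic2 fell after DD (log2 -0.96, SE 0.19, edgeR adjusted p = 0.000113) and DC (log2 -1.08, SE 0.20, adjusted p = 1.99e-05), but stood at -0.05 (SE 0.19) in vehicle cortex. Elof1 rose after DC (log2 1.49, SE 0.42, edgeR adjusted p = 0.00576) and in vehicle cortex (log2 2.02, SE 0.33, adjusted p = 9.16e-06), and stood at 0.84 (SE 0.38) after DD. Gm46840 rose in the cortex of vehicle mice, by 0.94 on the log2 scale (SE 0.18, edgeR adjusted p = 0.000107). Inhbb, Gm10265 and Gm52523 passed after DC, at log2 0.76, -0.84 and -0.83. In APOE3 DC hippocampus, Elof1 had 1 to 5 unscaled counts (median 1.5) and Inhbb 1 to 8 (median 3), close to the lowest value. The negative probe had a median of 10.9 in APOE4 DC hippocampus and 1.26 in APOE3 DC hippocampus. All of these p-values are over regions that may share animals.

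**Figure D5:**
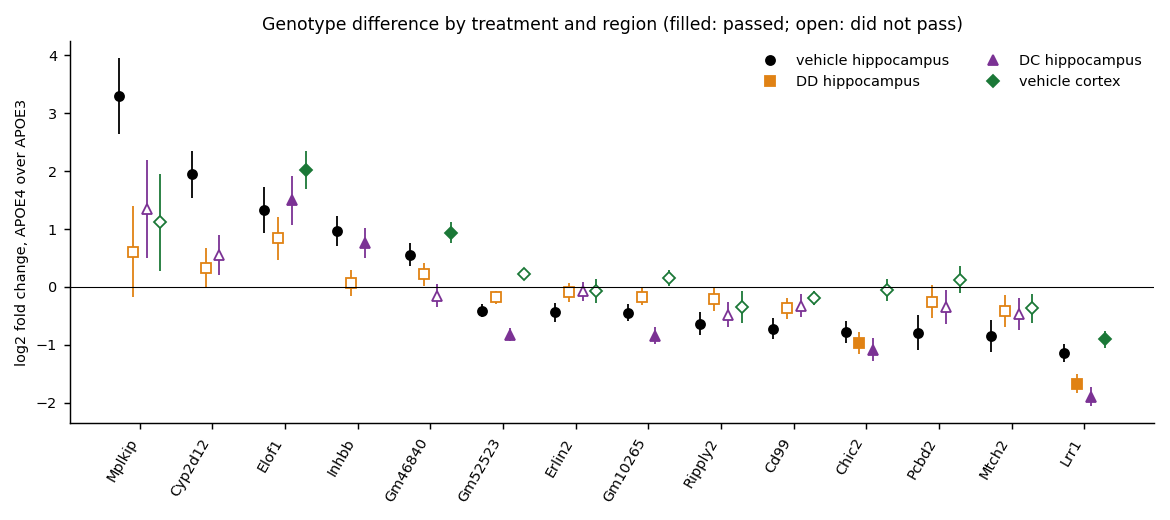
Log2 fold change of APOE4 over APOE3 with its standard error for 14 of the 15 genes, in vehicle, DD and DC hippocampus and in vehicle cortex; filled symbols passed, open ones did not, and genes not tested in cortex have no diamond. Lrr1 is filled in all 4 comparisons, and Chic2 in the 3 of hippocampus.

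Whether the allele difference itself changed with region or treatment was tested by interaction. Between hippocampus and cortex of vehicle mice it differed in 2 of 37 genes (5.41%). Gm52523 was lower in APOE4 hippocampus (61.1 ± 8.17 in APOE4 and 81.1 ± 9.07 in APOE3) and stood at log2 0.23 (SE 0.10) in cortex (128 ± 15.7 in APOE4 and 109 ± 14.5 in APOE3; SD, n = 8 each). The difference of the fold changes was -0.64 (SE 0.15, edgeR adjusted p = 0.00546). Tysnd1 stood at log2 -0.14 in hippocampus and rose in cortex (log2 0.55, SE 0.13), a difference of -0.69 (SE 0.19, edgeR adjusted p = 0.0164). Both calls ended under upper-quartile scaling, where the differences turned to 0.11 and 0.04, with DESeq2 (-0.37 and -0.45), and when APOE4 library 8 (-0.28 and -0.31), APOE3 library 4 (-0.34 and -0.36) or APOE3 library 5 (-0.32 and -0.40) was left out. Only the 16 vehicle hippocampus libraries were left out in turn, and no cortex library was. The interaction tests are over regions that may share animals.

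Between DD and vehicle the allele difference passed in 0 of 38 genes (0%) with edgeR, with 7 at an unadjusted p under 0.05; DESeq2 also called 0. The 6 smallest p-values were those of Cyp2d12 (-1.61, SE 0.55, edgeR adjusted p = 0.185), Inhbb (-0.90, SE 0.35, adjusted p = 0.195), Mplkip (-2.69, SE 1.12, adjusted p = 0.195) and Lrr1 (-0.53, SE 0.22, adjusted p = 0.195) below 0, and of Coa5 (0.67, SE 0.30, adjusted p = 0.196) and Gm34733 (0.54, SE 0.24, adjusted p = 0.196) above 0. Between DC and vehicle 2 of 38 passed (5.26%), 1 above and 1 below 0 (2.63% each). Txlnb, a taxilin, averaged 21.0 ± 4.83 normalised counts in APOE4 and 20.2 ± 8.73 in APOE3 with vehicle, and after DC 19.6 ± 3.64 in APOE4 and 8.20 ± 5.51 in APOE3 (SD, n = 8 each). The difference was 1.20 (SE 0.33, edgeR adjusted p = 0.0245). The APOE3 DC libraries held only 1 to 11 unscaled Txlnb counts (median 2.5), close to the lowest value of 1. Lrr1 differed more after DC than with vehicle, by -0.76 (SE 0.22, edgeR adjusted p = 0.0271). The call ended when any 1 of 9 vehicle libraries was left out (APOE4 libraries 4 to 8 and APOE3 libraries 3, 6, 7 and 8). No DC library was left out in turn. The negative probe ran from 1.63 to 93.1 in APOE4 DC hippocampus and from 1.02 to 1.86 in APOE3 DC hippocampus. Without the libraries at 5 or more, 7 of them hippocampus, the differences were 0.71 for Txlnb (adjusted p = 0.282) and -1.07 for Lrr1 (adjusted p = 0.0371). That removal fell on 1 side only. The APOE4 DC hippocampus group, with a median of 10.9, lost libraries, while the APOE3 DC and both vehicle hippocampus groups kept all of theirs.

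Fitted without a low-count filter, 32 of 19962 genes passed (0.16%), 31 higher (0.155%) and 1 lower (0.00501%) in APOE4, with 281 at an unadjusted p under 0.05. Single libraries carried these calls: 21 of the 32 genes had their highest count in APOE4 library 3, 8 in APOE4 library 6, 2 in APOE4 library 8 and 1 in APOE3 library 4. Apol7a, of the apolipoprotein L family, had 1027 counts in APOE4 library 3 and at most 4 in the other 15 libraries. Dennd11 had 865 counts there and at most 5 elsewhere. Las1l, a ribosome biogenesis factor, had 492, the carboxypeptidase Cpb2 447, the phosphatase subunit Ppp2cb 317, the metalloproteinase Mmp24 288, Plekhf1 239 and the thioesterase Acot11 236 in that library. Cys1 had 334 in APOE4 library 6. The other 15 libraries held at most 8 counts of any of these. The 1 gene lower in APOE4, 1700086L19Rik, had 53 counts in APOE3 library 4 and at most 7 elsewhere. Without the 4 libraries that stood apart, 0 genes passed, and DESeq2 also called 0.

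The pathways usually studied with APOE could not be compared, with most of their genes near the negative probe. The 36 gene lists held 533 measured genes; 0 members passed over all genes in either direction, 15 had an unadjusted p under 0.05, and 3 (Mtch2, Coa5 and Olig2) passed the low-count filter. List medians lay between 0.812 and 1.05 times the negative probe, where the median of all genes was 0.878. Among the 16 measured genes of APOE and lipid transport, the most abundant were the sorting receptor Sorl1, with mean counts of 4.75 in APOE4 and 2.13 in APOE3, and Clu, the apolipoprotein J, with 3.38 and 2.25. The median log2 fold change was 0.17 in that list and -0.28 in the 14 genes of cholesterol synthesis, beside -0.03 for all genes. Insig1, which holds the sterol sensor in the endoplasmic reticulum, averaged 5.63 counts in APOE4 and 1.63 in APOE3, with 50.0% of the counts of the 16 libraries in APOE4 library 3 (log2 0.93, SE 0.49, edgeR adjusted p = 0.993).

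Glial and immune lists had medians near the negative probe. Homeostatic microglial genes had a median log2 fold change of 0.08, disease-associated microglial genes 0.02, complement genes 0.07, cytokines and NF-kB targets -0.22, interferon response genes 0.07 and antigen presentation genes 0.03. Aif1, the microglial protein Iba1, had 1 to 5 counts in both genotypes, with medians of 2 in APOE4 and 1 in APOE3. Gfap, the astrocyte filament, had 1 to 8 counts in APOE4 (median 3) and 1 to 3 counts in APOE3 (median 1). On the scaled values its log2 fold change was 0.19 (SE 0.36), within the spread. Astrocyte genes had a median of -0.17 and reactive astrocyte genes of -0.25. Olig2, which specifies oligodendrocytes, passed the low-count filter, with means of 11.3 counts in APOE4 and 7.75 in APOE3. Its log2 fold change was -0.10 (SE 0.26, edgeR adjusted p = 0.823) among the tested genes. In the fit over all genes it was -0.27 (SE 0.52, adjusted p = 0.993). Mbp, of the myelin sheath, averaged 1.75 counts in APOE4 and 1.38 in APOE3.

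Among neuronal lists, excitatory neuron genes had a median log2 fold change of 0.03, inhibitory neuron genes -0.04, synaptic vesicle genes 0.07, glutamate receptor and postsynaptic genes -0.09, immediate early genes -0.05 and neurotrophic factors -0.31, the lowest of the lists. Bdnf averaged 1.63 counts in APOE4 and 1.5 in APOE3. TCA cycle genes had the highest median, 0.31, led in abundance by Idh3a (means of 6.63 counts in APOE4 and 1.25 in APOE3), of whose counts 66.7% lay in APOE4 library 3. Oxidative phosphorylation genes stood at -0.14, glycolysis at -0.01, mitochondrial membrane and import at 0.10 and ribosomal proteins at 0.19, with 51 of 82 ribosomal genes above 0, where 9484 of all 19962 genes were above 0. Cdkn1a, a p53 target and senescence marker, averaged 2.88 counts in APOE4 and 1.5 in APOE3 (log2 0.08, SE 0.42). Rgs5, of pericytes, had the lowest adjusted p of the list members named, 0.133 (means of 10.3 counts in APOE4 and 1.5 in APOE3, log2 1.96), with 62.8% of its counts in APOE4 library 3.

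In mm10, Lrr1 lies on chromosome 12 at 69168814 to 69179012, Chic2 on chromosome 5 at 75005004 to 75044641, Mtch2 on chromosome 2 at 90847090 to 90866810, Elof1 on chromosome 9 at 22112986 to 22117195, Cyp2d12 on chromosome 15 at 82555043 to 82559413 and Mplkip on chromosome 13 at 17695413 to 17699112, all protein-coding. Inhbb lies on chromosome 1 at 119415463 to 119422248 and is also protein-coding, and the long non-coding Gm46840 on chromosome 4 at 3231182 to 3258873.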

How the data were processed

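The deposited values are expected counts per gene, not scaled to depth, with a lowest value of 1 in each of the 16 libraries; they are whole in all but 4 of 19963 rows, the negative probe and 3 genes. The submitters' processing notes name mm10; the counting software is not given in the sources used here. Values were rounded. The unit is the captured region; where nothing ties regions to animals, p-values measure the spread between regions.

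edgeR 4.0.16 (R 4.3.3) was fitted to the 48 hippocampus libraries in 6 groups, with TMM, filterByExpr (minimum count 10, leaving 38 genes), its quasi-likelihood test and adjustment by Benjamini-Hochberg at 0.05; SEs were derived from the F statistic. Vehicle libraries of both regions (32, 37 genes) served the region interaction, and a fit of all 19962 genes the lists, which are described by counts and medians. DESeq2 1.42.0 and limma 3.58.1 (random block) were alternatives. Library measures were compared by exact permutation tests (scipy 1.17.1). The edgeR fit was tested on simulated data.

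Replicate numbers follow accession order and pair nothing. A run is a set of neighbouring wells of 1 group (4 runs per genotype). 0 pairs of libraries were identical, and no library was dropped from the main fits. The genes named are those that passed, the 10 most abundant that did not, up to 10 per direction in the fit of all genes, up to 4 per list, and 6 single genes (Apoe, Aif1, Gfap, Mbp, Bdnf, Cdkn1a). 1 gene that passed is counted and not reported here. The members, lists and tests were chosen with earlier results of these data known. Coordinates and promoters come from RefSeq (GRCm38.p6), which held 37 of the 38 tested symbols. Alternatives were other scalings, filters, the lowest value set to 0, negative probe subtraction or covariate, run sums or blocks, and libraries left out; those scaled to the negative probe or to all counts, and that without 4 libraries, were chosen after seeing the data.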

Additional observations from a re-analysis of the deposited data

Results flagged for a closer look

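Among 40 sets of 8 values (15 genes and 5 library measures in each genotype, on the log2 scale), 4 held a value far from the others by Dixon's ratio, the gap to the nearest value over the range, above its critical value; chance gives about 1 such set in 20. Mplkip was highest in APOE4 vehicle hippocampus 3 (ratio 0.695), where it had 484 counts. Gm52523 was lowest in APOE4 vehicle hippocampus 5 (ratio 0.625). Mtch2 was highest in APOE3 vehicle hippocampus 5, both as normalised count (ratio 0.787) and as share of the tested counts (ratio 0.579).

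The allele difference of 4 genes differed between regions or treatments by an edgeR interaction test. These were Gm52523 (-0.64) and Tysnd1 (-0.69) between vehicle hippocampus and vehicle cortex, and Txlnb (1.20) and Lrr1 (-0.76) between DC and vehicle hippocampus, all on the log2 scale. Each genotype lay on its own plate, so genotype and plate cannot be told apart in these differences. The part of background in them was not tested.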

How the results depend on the processing

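Of 31 alternatives, Lrr1, Mplkip, Cyp2d12 and Elof1 kept their calls in 30 each. Lrr1, Cyp2d12 and Elof1 lost theirs with no low-count filter. Mplkip lost its call without the 4 libraries that stood apart, among them APOE4 library 3, which held 81.1% of its counts in the 16 libraries. The 15 calls became 32 with no filter (1 gene kept) and 4 when scaled to the negative probe or to the total count of all genes; leaving out 1 library gave 12 (without APOE3 library 5) to 17. Summing runs of wells left 10 (without Mtch2, Erlin2, Ripply2, Gm10265 and Gm46840) and a random block for runs 15. Gm52523 (0.0248) and Erlin2 (0.000311) changed sign with no scaling factors.

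The 32 calls over all genes became 0 with DESeq2, 3 with the 16 libraries alone, 1980 with values of 1 set to 0, 13 with run sums, 527 with a random block and 0 without the 4 libraries that stood apart; leaving out 1 library gave 13 to 41 (13 without APOE4 library 3, 19 without APOE3 library 2, 21 without APOE3 library 3 or 8). The 2 region interactions became 1 under upper-quartile scaling, where Gm52523 (0.115) and Tysnd1 (0.0430) changed sign, 0 with no scaling factors, DESeq2, a minimum count of 5, no filter or run sums, and 7 with values of 1 set to 0; leaving out 1 library gave 0 (APOE4 library 8, APOE3 library 4 or 5) to 4 (APOE4 library 6). The 2 DC interactions became 0 with a minimum count of 5, no filter, fewer groups in the fit, the negative probe subtracted or run sums, 1 with a random block, 7 with the covariate and 4 without the 7 hippocampus libraries of high negative probe; leaving out 1 library gave 1 to 4 (APOE3 library 5). The DD interaction count was 0 throughout. For every interaction, only vehicle hippocampus libraries were left out 1 at a time, and no DD, DC or cortex library was. The Mtch2 share lost its call over runs of wells (log2 -0.40, exact permutation, adjusted p = 0.107). Leaving out 1 library gave log2 differences of 0.67 to 0.84 for the total count, 1.48 to 1.75 for the count over 1, 0.70 to 0.88 for the negative probe, 0.13 to 0.43 for the tested counts and -0.46 to -0.36 for the Mtch2 share. Of the 36 list medians, 15 moved by over 1 SD under upper-quartile scaling and 28 with the negative probe subtracted. Where not set by fewer genes or libraries, the cause was not tested. No paired analysis was possible because the labels give no replicate numbers. Nearly all genes lay near the negative probe, with 71 of 19962 at a median level over 2 times it, which limits what could be compared. The part of depth in this was not tested.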
